A study of Mus musculus with 8 samples.

Results

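The genes described here encode the enzymes and transporters that carry glucose into a cell, break it down to pyruvate, turn pyruvate into lactate or pass it to the pyruvate dehydrogenase complex of the mitochondrion. They were chosen as the 31 mouse symbols of a fixed list, matched by Ensembl identifier to 32 of the 55450 genes in the first deposited table. The extra row was a second locus named Aldoa (ENSMUSG00000114515), which stayed at or below 0.293 FPKM in replicates 1 to 3. FPKM counts sequenced fragments scaled to gene or transcript length and library size. The other 31 rows, 1 per symbol, all passed the filter of at least 1 FPKM in at least 3 of 6 libraries and were among 11387 genes tested. Messenger RNA came from cultures labelled bone marrow-derived dendritic cells, grown from mice with Sjögren's syndrome dry eye, although the titles of the samples name them BMDMs, the usual short form for macrophages. Vehicle cultures received phosphate-buffered saline (4 libraries) and S100A8/A9 cultures received the recombinant protein pair S100A8/A9 (4 libraries), a calcium-binding alarmin that neutrophils and monocytes release. All cultures shared the disease model, so no culture came from mice without the disease. Strain, age, dose, duration and whether replicates came from separate animals are not given in the sources used here, and p-values measure the spread between these libraries, which may be technical. The comparison asks which programs the protein pair engages in these cells.

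Glycolysis splits 1 glucose into a pair of pyruvate molecules. Hexokinases trap glucose as glucose 6-phosphate, phosphofructokinase commits it to breakdown, and the payoff steps from glyceraldehyde 3-phosphate to pyruvate yield ATP and NADH. Lactate dehydrogenase restores NAD+ by reducing pyruvate to lactate, which leaves the cell through proton-linked monocarboxylate transporters, while pyruvate dehydrogenase makes acetyl-CoA for the citric acid cycle and is switched off by pyruvate dehydrogenase kinases. Dendritic cells and macrophages are known to raise glycolysis when Toll-like receptors are engaged, in part through kinases that act on existing enzyme and in part through the transcription factor HIF-1, which binds the core letters ACGTG or GCGTG.

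Replicates 1 to 3 of both groups shared 1 table, and the replicate 4 libraries stood in another one made separately, so tests used replicates 1 to 3 and replicate 4 is given beside them. FPKM summed to between 282921 and 303660 in the first table, and replicate 4 implied 31893435 reads for the vehicle library and 33408161 for the S100A8/A9 library. The depth of replicates 1 to 3 is unknown. Of the dendritic cell markers, Itgax was between 47.2 and 66.9 FPKM in replicates 1 to 3, the lineage factor Zbtb46 between 2.13 and 3.62 FPKM and the growth factor receptor Flt3 at or below 0.921 FPKM. From the same list, Cd74 was between 2530 and 3823 FPKM and H2-Aa between 442 and 714 FPKM. The macrophage marker Cd68 was between 305 and 474 FPKM. Among 9 general dendritic cell markers 6 passed the filter, and among 10 macrophage markers 9 did. The markers therefore met the dendritic cell label in part. Fewer cells of a type and less RNA per cell cannot be told apart in bulk RNA.

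The glycolytic genes spanned more than 2 orders of magnitude in FPKM, a scale that is per length, so comparisons between genes depend on the length used. Together the 31 genes took 0.656%, 0.703% and 0.876% of summed FPKM in vehicle replicates 1, 2 and 3, and 0.630%, 0.688% and 0.935% under S100A8/A9. Replicate 3 held the highest share in both groups, and the groups overlapped. In replicate 4 the shares were 0.689% and 0.757%. The most abundant were Aldoa, the aldolase that splits fructose 1,6-bisphosphate, at a mean of 558 FPKM over replicates 1 to 3 (range 468 to 729), and Pkm, pyruvate kinase, at 480.1 FPKM (404 to 616). Their ranges overlapped. Enolase Eno1 at 223 FPKM (181 to 290.4) and lactate dehydrogenase Ldha at 219 FPKM (196 to 251) came next and did not differ beyond their ranges, followed by Gpi1 (131), Pgk1 (114), Tpi1 (87.3) and Pgam1 (68.7 FPKM). The entry and branch genes were lower. The highest mean among the transporters, hexokinases, phosphofructokinases and pyruvate dehydrogenase genes was that of Hk3, at 36.5 FPKM. The lowest means were those of Slc2a3 (1.36 FPKM), the muscle phosphofructokinase Pfkm (1.60), Bpgm (1.72), which makes 2,3-bisphosphoglycerate, and the heart-type lactate dehydrogenase Ldhb (1.96). Fold changes of these 4 on the log2(FPKM + 1) scale used below understate the change.

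**Figure D1:**
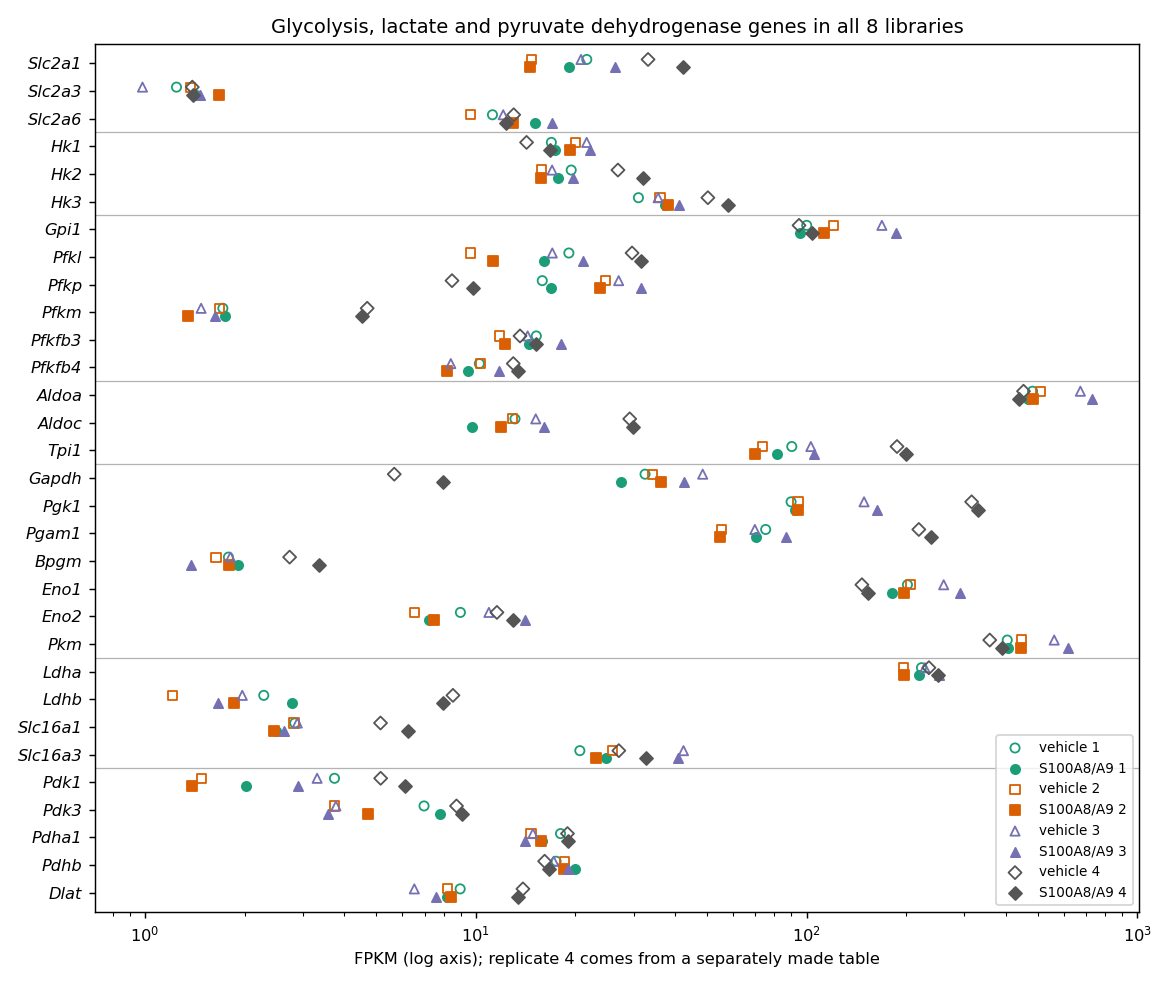
FPKM on a log axis of the 31 genes in all 8 libraries, grouped by step of the pathway, with vehicle as open symbols, S100A8/A9 as filled symbols and 1 symbol shape per replicate. Open and filled symbols of a replicate lie close together, while Aldoa, Pkm, Gpi1, Pgk1 and Slc16a3 of replicate 3 stand to the right of replicates 1 and 2.

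S100A8/A9 left no glycolytic gene past the test. Of the 31, limma called 0 after Benjamini-Hochberg adjustment (threshold 0.05), where the background was 0% of 11387 genes, and the smallest adjusted p among the 31 was 0.9998. With the replicate number as a block none of the 31 was called either, against 0.518% of all genes, with a smallest adjusted p of 0.0749. At an unadjusted p under 0.05, limma gave 1 of the 31 without the block (background 3.02%) and 2 with it (background 7.97%). The median log2 difference, S100A8/A9 minus vehicle, was 0.035 over the 31 and 0.025 over all genes tested, and 21 of the 31 lay above 0 against 59.6% of all genes. With the block, the 95% interval of the fold in FPKM + 1 stayed within 1.25-fold in either direction for 18 of the 31. Over all 31 the bounds ran from 0.644 for Pdk1 to 1.49 for Slc2a6. Standard errors printed below come from the fit with the block.

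Glucose transporters held the largest difference. Slc2a6, a hexose transporter of intracellular vesicles in myeloid cells (ENSMUSG00000036067, chromosome 2, 27021363 to 27027998 in mm10), was at 11.2, 9.66 and 12.1 FPKM in vehicle libraries and 15.1, 12.99 and 17.0 FPKM in S100A8/A9 libraries in replicates 1, 2 and 3. All 3 S100A8/A9 values lay above all 3 vehicle values, and the within-replicate ratios were 1.35, 1.34 and 1.41. The log2 difference was 0.42 ± 0.067 (SE). It missed the threshold in the blocked limma fit (adjusted p = 0.0749), and the fold interval was 1.19 to 1.49. Replicate 4 went the other way, with 13.02 and 12.3 FPKM and a ratio of 0.948. Slc2a3, which encodes the high-affinity transporter GLUT3, was at 1.24, 1.37 and 0.982 FPKM in vehicle libraries and 1.42, 1.67 and 1.47 FPKM in S100A8/A9 libraries, without overlap, and at 1.39 and 1.39 FPKM in replicate 4. Its log2 difference of 0.20 ± 0.13 (SE) gave adjusted p = 0.805 in the blocked limma fit, and in replicate 4 the pair of values stood for 321 and 337 reads. Slc2a1, the widely expressed transporter GLUT1 and the highest of these 3, was at 21.7, 14.7 and 20.8 FPKM in vehicle libraries, 19.2, 14.5 and 26.4 FPKM in S100A8/A9 libraries and 33.2 and 42.3 FPKM in replicate 4. Its ratios of 0.886, 0.989, 1.27 and 1.28 in replicates 1 to 4 fell on both sides of 1, and the groups overlapped.

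Among hexokinases, Hk3 was the most abundant, a form found mainly in myeloid cells (ENSMUSG00000025877, chromosome 13, 55005985 to 55021385). It was at 31.0, 36.0 and 35.6 FPKM in vehicle libraries and 37.4, 38.0 and 41.2 FPKM in S100A8/A9 libraries, and at 50.3 and 57.9 FPKM in replicate 4. S100A8/A9 was higher in each of the 4 pairs, with ratios of 1.21, 1.05, 1.16 and 1.15, and the groups of replicates 1 to 3 did not overlap. The log2 difference of 0.18 ± 0.065 (SE) did not pass over all genes (adjusted p = 0.526 in the blocked limma fit). Hk1, the housekeeping form, had ratios of 1.02, 0.963, 1.02 and 1.17, and Hk2, the form raised by HIF-1 and by growth signals, had ratios of 0.909, 1.000, 1.16 and 1.19. Both had their highest ratio in replicate 4, and neither passed.

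At the phosphofructokinase step, the isomerase Gpi1 was the most abundant gene and had a log2 difference of -0.011 ± 0.065 (SE). It was at 100.1, 121 and 169 FPKM in vehicle libraries, 95.5, 113 and 186 FPKM in S100A8/A9 libraries and 94.9 and 104 FPKM in replicate 4, so replicates differed far more than treatments. Pfkp, the platelet-type subunit, was at 15.9, 24.7 and 27.0 FPKM in vehicle libraries, 16.9, 23.7 and 31.6 FPKM in S100A8/A9 libraries and 8.47 and 9.78 FPKM in replicate 4. Differences of Pfkl, the liver-type subunit, and of Pfkm were 0.088 ± 0.11 and -0.029 ± 0.13 (SE). Pfkfb3 and Pfkfb4 make the activator fructose 2,6-bisphosphate, and their differences were 0.099 ± 0.091 and 0.010 ± 0.14 (SE). The Pfkfb4 ratios of 0.924, 0.791, 1.40 and 1.04 in replicates 1 to 4 show how widely the pairs of 1 gene could spread.

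No gene of the aldolase and triose steps passed. Aldoa (ENSMUSG00000030695) was at 482, 509 and 673 FPKM in vehicle libraries, 468, 485 and 729 FPKM in S100A8/A9 libraries and 453 and 439.9 FPKM in replicate 4. Replicate 3 was highest in both groups, and the fold interval between treatments was 0.909 to 1.10. Aldoc, the brain-type aldolase, and Tpi1, triose phosphate isomerase, had differences of -0.14 ± 0.10 and -0.062 ± 0.060 (SE).

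Among the payoff enzymes, Pkm was at 404, 446 and 561 FPKM in vehicle libraries, 407, 447 and 616 FPKM in S100A8/A9 libraries and 358 and 389.6 FPKM in replicate 4. S100A8/A9 was above vehicle in each of the 4 pairs, with ratios of 1.01, 1.00, 1.10 and 1.09, and the difference of 0.048 ± 0.054 (SE) gave adjusted p = 0.894 in the blocked limma fit. The kinase Pgk1 was at 89.8, 94.3 and 149 FPKM in vehicle libraries, 92.2, 94.0 and 164 FPKM in S100A8/A9 libraries and 316 and 331 FPKM in replicate 4. Mutase Pgam1 differed by 0.066 ± 0.087, Bpgm by -0.034 ± 0.13, and the enolases Eno1 and Eno2 by -0.018 ± 0.071 and 0.075 ± 0.12 (SE). Gapdh, the dehydrogenase often used as a reference gene, was at 32.5, 34.1 and 48.5 FPKM in vehicle libraries, 27.5, 36.3 and 42.7 FPKM in S100A8/A9 libraries and 5.67 and 7.96 FPKM in replicate 4. Its ratios of 0.846, 1.06, 0.880 and 1.40 did not keep 1 direction, and most 50-base stretches of its main transcript also occur in other genes.

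On the lactate branch, Ldha was at 223, 196 and 228 FPKM in vehicle libraries, 219, 197 and 251 FPKM in S100A8/A9 libraries and 234 and 250.4 FPKM in replicate 4, a difference of 0.040 ± 0.056 (SE). Ldhb differed by 0.14 ± 0.14 (SE). Slc16a3 encodes MCT4, the exporter of strongly glycolytic cells, and was at 20.6, 25.9 and 42.5 FPKM in vehicle libraries, 24.7, 23.1 and 40.7 FPKM in S100A8/A9 libraries and 27.1 and 32.6 FPKM in replicate 4. The groups overlapped, and ratios of 1.20, 0.891, 0.960 and 1.21 fell on both sides of 1. Slc16a1, which encodes MCT1, was the only one of the 31 whose S100A8/A9 values in replicates 1 to 3 all lay below the vehicle values, at 2.48, 2.46 and 2.63 against 2.84, 2.82 and 2.89 FPKM. In replicate 4 it was higher with S100A8/A9, at 5.15 and 6.26 FPKM for vehicle and S100A8/A9, and the blocked limma fit gave adjusted p = 0.841.

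In the pyruvate dehydrogenase group, Pdhb, the E1 beta subunit, was at 17.5, 18.6 and 17.2 FPKM in vehicle libraries, 19.9, 18.5 and 19.0 FPKM in S100A8/A9 libraries and 16.1 and 16.7 FPKM in replicate 4. The kinase Pdk1, a HIF-1 target that holds pyruvate back from the mitochondrion, was at 3.74, 1.48 and 3.31 FPKM in vehicle libraries, 2.02, 1.38 and 2.90 FPKM in S100A8/A9 libraries and 5.16 and 6.09 FPKM in replicate 4. Its ratios were 0.540, 0.937, 0.877 and 1.18, and replicate 1 carried most of the difference of -0.28 ± 0.15 (SE), which was -0.099 without that replicate. Pdk3, another kinase, differed by 0.12 ± 0.098, the E1 alpha subunit Pdha1 by -0.051 ± 0.078 and the E2 subunit Dlat by 0.035 ± 0.088 (SE).

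Slc2a3, Slc2a6 and Hk3 were the 3 of 31 genes with all S100A8/A9 values of replicates 1 to 3 above all vehicle values, where 4.71% of all genes tested met this, and Slc16a1 was the 1 below, where 1.94% did. Slc2a3, Hk3 and Pkm were higher with S100A8/A9 in all 4 pairs, or 3 of 31 against 11.7% of genes in both tables, and 0 of 31 were lower in all 4 against 4.54%. In all 3 pairs of the first table, 4 of 31 were higher, where 19.4% of genes were, and Slc16a1 and Pdk1 were the 2 of 31 lower, where 9.62% were. The pairs were unlike each other. S100A8/A9 was higher for 13 of 31 genes in pair 1 (median log2 difference -0.067), 14 in pair 2 (-0.0037), 23 in pair 3 (0.14) and 26 in pair 4 (0.095). In pair 3 the median over all genes tested was 0.079, and the S100A8/A9 library of that pair had the largest median-of-ratios factor of the 6, 1.07, against 0.969 to 1.01 in the others.

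**Figure D2:**
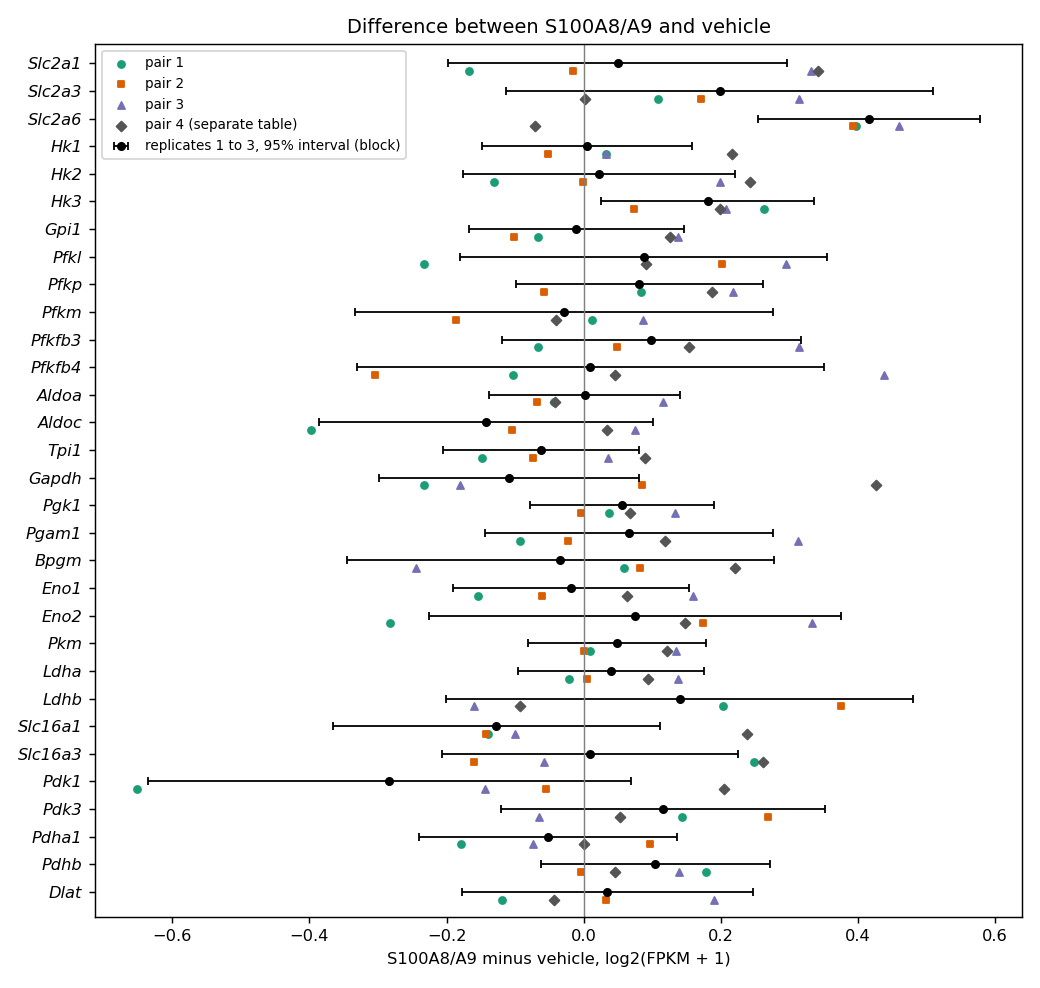
Difference between S100A8/A9 and vehicle in log2(FPKM + 1) for the 31 genes, with the estimate over replicates 1 to 3 and its 95% interval from the fit with the replicate block in black and the 4 within-pair differences as colored points. The intervals of Slc2a6 and Hk3 lie above 0, and no gene passes after adjustment over all genes.

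Glycolytic genes differed between replicate numbers in both groups. Once treatment was allowed for, 13 of the 31 differed among replicate numbers 1 to 3 at an adjusted p under 0.05 in limma's F test, where 12.7% of all genes tested did. The 13 were Pgk1, Gpi1, Pfkp, Aldoa, Slc16a3, Pkm, Pdk3, Tpi1, Pfkl, Eno1, Gapdh, Slc2a1 and Eno2, with adjusted p-values from 0.00277 to 0.0454. The median range between replicate means was 0.49 on the log2(FPKM + 1) scale over the 31 and 0.26 over all genes, while the median size of the difference between treatments was 0.062 and 0.077. The range between replicate means exceeded the difference between treatments for 26 of the 31 and for 87.2% of all genes. That range spans more means, each of fewer libraries, than the difference does. It therefore tends to be the larger even where replicates do not differ. The count of 13 depended on the filter and on single replicates: without the filter on low values 0 of these genes and 18 overall were called, and without replicate 3 it was 3 of 31 and 526 overall.

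Most of the 13 were highest in replicate 3. For 10 of them both libraries of replicate 3 lay above the other 4, at 1.32 times the mean of the other replicates for Tpi1 up to 1.76 times for Slc16a3. Over all 31 genes 13 had this pattern, against 22.3% of all genes tested. Pgk1 (chromosome X, 106187100 to 106203699) was at 89.8 and 92.2 FPKM in the vehicle and S100A8/A9 libraries of replicate 1, 94.3 and 94.0 in replicate 2 and 149 and 164 in replicate 3. Gpi1 (chromosome 7, 34201330 to 34230336) was at 100.1 and 95.5, 121 and 113 and 169 and 186 FPKM in the same order, and Slc16a3 (chromosome 11, 120948480 to 120960868) at 20.6 and 24.7, 25.9 and 23.1 and 42.5 and 40.7 FPKM. Pgk1 and Slc16a3 were alike in replicates 1 and 2, whereas Pfkp was lowest in replicate 1, at 15.9 and 16.9 FPKM against 24.7 and 23.7 and 27.0 and 31.6.

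Another set was lowest in replicate 2. Both libraries of replicate 2 lay below the other 4 for 8 of the 31, against 7.85% of all genes tested, namely Tpi1, Pfkl, Slc2a1, Pgam1, Pdk1, Ldha, Pfkfb3 and Hk2. Pfkl was at 19.1 and 16.1 FPKM in replicate 1, 9.65 and 11.2 in replicate 2 and 17.0 and 21.1 in replicate 3 (adjusted p = 0.0227 in limma's F test). Pdk1 was at 3.74 and 2.02, 1.48 and 1.38 and 3.31 and 2.90 FPKM and did not pass (adjusted p = 0.0628 in limma). Pdk3 stood alone among the 13 in being highest in replicate 1, at 6.97 and 7.81 FPKM against 3.74 and 4.71 and 3.78 and 3.56. Neither Slc16a1, Pdhb, Pfkfb4, Pfkm, Bpgm nor Slc2a3 passed, with adjusted p-values from 0.655 to 0.949 in limma.

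Markers of several cell types moved with the replicate numbers as well. Of all genes tested, 12.7% were called by replicate number. The summed FPKM of 10 macrophage markers was 936 and 989 with vehicle and S100A8/A9 in replicate 1, 641 and 641 in replicate 2 and 489 and 531 in replicate 3, and 9 of 9 tested differed by replicate number. For 11 neutrophil markers the sums were 118 and 119, 142 and 150.2 and 276 and 263, with 5 of 5 called. S100a8, S100a9, Lcn2 and Mmp9 were highest in replicate 3, while Mmp8 was highest in replicate 1, at 98.5 and 98.3, 59.8 and 60.5 and 68.5 and 72.0 FPKM, and made up most of the sum there. For 7 erythroid markers the sums were 3.21 and 4.59, 9.56 and 7.58 and 129 and 115, with 4 of 4 called. The 9 general dendritic cell markers summed to 5404 and 5433, 3880.5 and 3920.0 and 3567 and 3851 FPKM, with 5 of 6 called. Most of that sum was Cd74, at 3790.5 and 3823, 2752 and 2826 and 2530.2 and 2779 FPKM, whereas Ccr7, also called, was highest in replicate 3, at 159.7 and 158, 141 and 143 and 207 and 227 FPKM. Other lists with tested markers had fewer calls. They were 1 of 4 for monocytes, 1 of 3 for type 2 dendritic cells, 1 of 2 for cycling cells and 0 of 3 for T and NK cells. For type 1 dendritic cells and for megakaryocytes and platelets 2 of 3 were called. Cd209a, a marker of type 2 dendritic cells, was the 1 marker of all lists at 0 in all 6 libraries. The part of these cells in the glycolytic pattern was not tested.

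**Figure D3:**
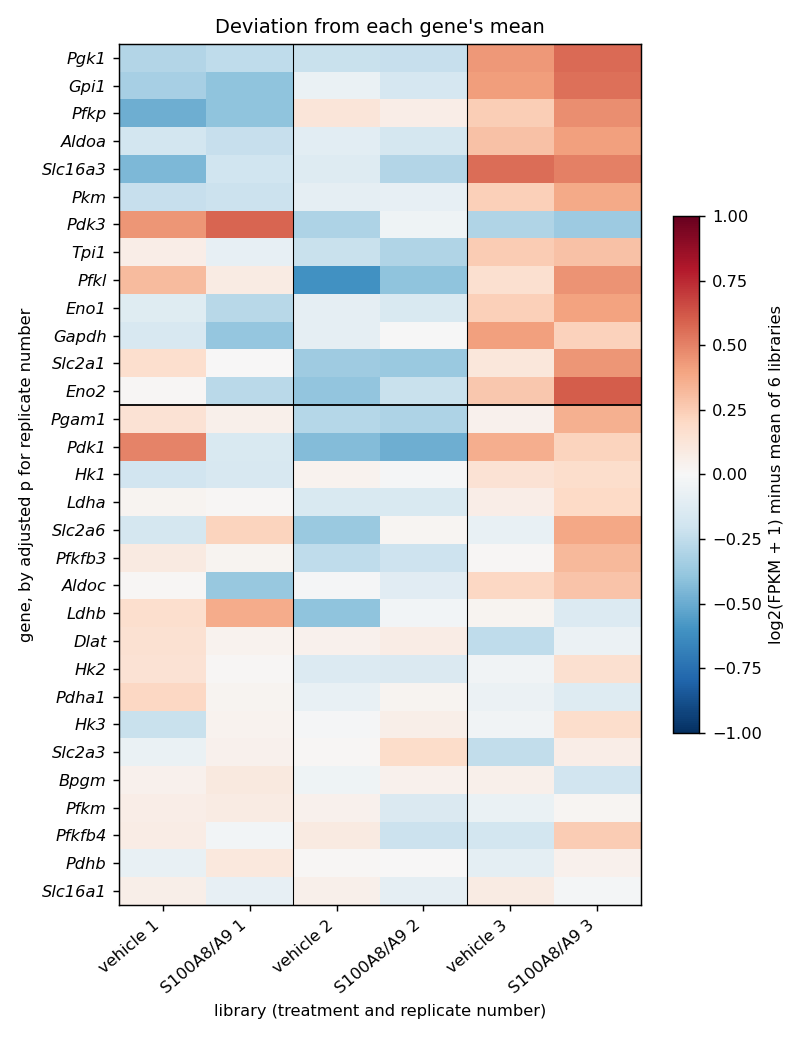
Deviation of log2(FPKM + 1) from each gene's mean over 6 libraries, with libraries in columns by replicate number and genes in rows by adjusted p for replicate number. The 13 genes above the black line passed, and 10 of them are highest in both libraries of replicate 3.

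The promoters of 4 of the 5 genes with the smallest p for replicate number are shown because these genes were highest together in replicate 3. The fifth, Aldoa, has several starts in RefSeq and is not shown. Each runs from 250 bases before to 50 bases after the RefSeq start (GRCm38.p6), 5′ to 3′ on the gene's strand, with the HIF-1 core letters ACGTG or GCGTG on either strand in capitals.
Pgk1: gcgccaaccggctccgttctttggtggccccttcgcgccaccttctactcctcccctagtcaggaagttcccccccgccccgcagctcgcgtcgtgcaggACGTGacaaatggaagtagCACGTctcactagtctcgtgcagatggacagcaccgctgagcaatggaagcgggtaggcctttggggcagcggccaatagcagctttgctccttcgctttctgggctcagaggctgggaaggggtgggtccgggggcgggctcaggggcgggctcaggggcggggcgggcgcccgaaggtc
Gpi1: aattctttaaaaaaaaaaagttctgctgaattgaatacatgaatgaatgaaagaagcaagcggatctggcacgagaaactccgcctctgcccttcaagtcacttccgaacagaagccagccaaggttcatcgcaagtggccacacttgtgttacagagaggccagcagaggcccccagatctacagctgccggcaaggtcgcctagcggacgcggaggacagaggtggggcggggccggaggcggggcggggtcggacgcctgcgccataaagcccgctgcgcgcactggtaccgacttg
Pfkp: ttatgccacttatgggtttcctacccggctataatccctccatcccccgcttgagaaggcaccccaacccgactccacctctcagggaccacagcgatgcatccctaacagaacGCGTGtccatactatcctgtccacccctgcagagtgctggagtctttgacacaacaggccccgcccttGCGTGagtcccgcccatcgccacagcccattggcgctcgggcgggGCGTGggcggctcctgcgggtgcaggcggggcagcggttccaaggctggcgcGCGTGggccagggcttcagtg
Slc16a3: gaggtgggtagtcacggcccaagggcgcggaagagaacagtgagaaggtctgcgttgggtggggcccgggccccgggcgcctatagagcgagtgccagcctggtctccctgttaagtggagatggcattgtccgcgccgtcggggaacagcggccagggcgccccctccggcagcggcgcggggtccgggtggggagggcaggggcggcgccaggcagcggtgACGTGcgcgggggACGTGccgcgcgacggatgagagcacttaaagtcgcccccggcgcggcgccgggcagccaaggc
They lie at chrX:106186850-106187149 on the forward strand, chr7:34230287-34230586 on the reverse strand, chr13:6648722-6649021 on the reverse strand and chr11:120948817-120949116 on the forward strand. Pgk1 and Slc16a3 each held 2 matches to ACGTG and 0 to GCGTG. Pfkp held 0 and 4, and Gpi1 held 0 of either, so genes highest together in replicate 3 differed in these letters. RefSeq promoters were matched for 30 of the 31 genes, 43 in all, and 20 of them (46.5%) held ACGTG against 19.6% of 32851 promoters of that length. GCGTG, also searched on both strands, was in 24 of 43 (55.8%) against 32.4%. The palindrome CACGTG, bound by MYC and related factors and counted within ACGTG, which it holds on both strands, was in 4 (9.30%) against 7.15%. The glycolytic promoters were richer in G and C, with a median of 61.3% against 52.7%, and the counts were not adjusted for this. Some promoters of the same gene overlap and hold the same site. Counted by gene, 17 of 30 held ACGTG against 21.8% of all genes, 19 of 30 held GCGTG against 35.2% and 4 of 30 held CACGTG against 8.09%.

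Within isozyme families 1 form often dominated in every library. Ldha gave 98.7% to 99.4% of lactate dehydrogenase FPKM over replicates 1 to 3, Aldoa 97.3% to 98.0% of Aldoa plus Aldoc, Eno1 94.4% to 96.2% of the 3 enolases and Slc16a3 87.9% to 93.9% of Slc16a3 plus Slc16a1. Hexokinase was shared, with Hk3 at 46.0, 50.2 and 47.9% under vehicle and 51.7, 52.0 and 49.6% under S100A8/A9. Slc2a6 gave 32.9, 37.5 and 35.7% of the summed FPKM of Slc2a1, Slc2a3 and Slc2a6 with vehicle and 42.3, 44.5 and 37.9% under S100A8/A9. Its groups did not overlap in replicates 1 to 3, and in replicate 4 the share was 27.4% and 22.0%. The transporters Slc2a8 and Slc2a9, given below, were not part of this sum. The phosphofructokinase subunits varied widely between replicates. Pfkl made up 52.1, 26.8 and 37.4% under vehicle and 46.4, 30.9 and 38.9% under S100A8/A9 in replicates 1, 2 and 3, while Pfkp took 43.3% to 68.6%. In replicate 4 Pfkl was at 69.3% and 68.9%, above every value of the first table, which was normalized separately. A share within a library does not depend on a scaling common to its genes, but it does depend on the length used for each gene. The lengths used in the first table are unknown, so table and replicate cannot be told apart. Among pyruvate dehydrogenase kinases Pdk3 gave 35.4% to 51.3%, Pdk2 30.3% to 44.0% and Pdk1 12.9% to 32.6%, and Pdk4 at most 0.214%.

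**Figure D4:**
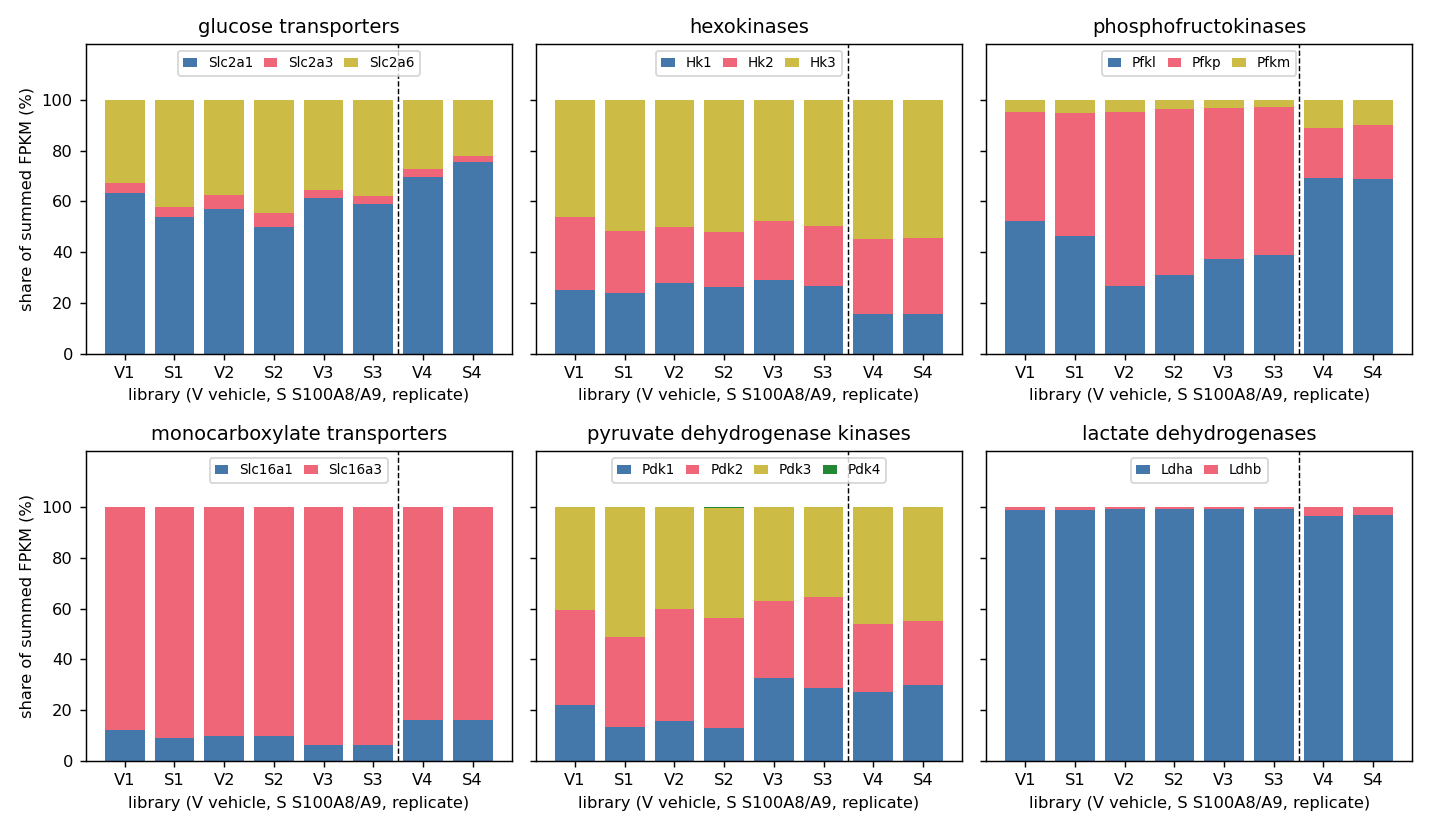
Share of each isozyme in the summed FPKM of its family, as stacked bars for vehicle (V) and S100A8/A9 (S) in replicates 1 to 4, with a dashed line before the separately made table of replicate 4. Bars of a replicate resemble each other, and Pfkl takes from 26.8% to 52.1% in replicates 1 to 3.

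Gapdh is where the level itself is in doubt. It ranked ninth of the 31, with a mean of 36.9 FPKM in replicates 1 to 3 and 6.81 FPKM in replicate 4, below its neighbors in the pathway, and in replicate 4 stood for 747 reads with vehicle and 1099 with S100A8/A9. Of all stretches of 50 bases in its main transcript, 82.5% also occur in transcripts annotated to other genes, and the same held for 72.2% of Eno1, 68.0% of Pgk1, 41.5% of Pgam1, 34.4% of Pkm and 30.3% of Pdhb. With stretches of 100 bases the shares were 78.0% for Gapdh, 59.0% for Eno1, 67.0% for Pgk1, 39.7% for Pgam1, 9.82% for Pkm and 10.5% for Pdhb, and the read length is not given in the sources used here. Slc2a6, Hk3, Slc16a3, Pdk1 and Pdk3 shared 0% at 50 bases. Another gene overlaps 16.1% of the exon length of Pdha1, 15.3% of Pkm, 11.5% of Gpi1 and 10.7% of Pfkm, and no strand marking is stated. How the authors treated reads that fit several places is not given in the sources used here, so values of the genes with shared or overlapping sequence are uncertain. FPKM also depends on the length used. Replicate 4 values fitted whole reads at the length of all annotated exons, while the lengths used for replicates 1 to 3 are unknown. That length was 4133 bases for Gapdh, against 1420 in its main transcript, and 5379 against 2027 for Eno1. For Pgk1 it was 2244 against 1825 and for Pgam1 1982 against 1775. The part of length in these levels and ratios was not tested. The tables also set many of the 31 genes differently. The ratio of mean FPKM in replicate 4 to that in replicates 1 to 3 was 0.184 for Gapdh, 0.675 for Eno1, 2.84 for Pgk1 and 3.32 for Pgam1, against a median of 1.36 over the 31. Over 11096 genes the median was 1.03 and the 5th to 95th percentiles were 0.309 to 2.89, so Eno1 and Pgk1 lay within that range. Ldhb had the highest ratio of the 31, 4.20, and genes without shared 50-base stretches in the main transcript shifted too, such as Pdk1 (2.27), Aldoc (2.25) and Slc16a1 (2.12). Eno1b, a near copy of Eno1, was at 50.1, 47.0 and 57.0 FPKM in vehicle libraries, 44.5, 48.4 and 73.7 FPKM in S100A8/A9 libraries and 119 and 125 FPKM in replicate 4.

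None of the neighboring pathway genes passed between treatments either. Of 38 other genes of glucose uptake, glycolysis and pyruvate entry 23 passed the filter. None was called in limma with or without the block, while 2 had an unadjusted p under 0.05 with it (background 7.97%). These 2 were the glucose transporters Slc2a9 and Slc2a8, with log2 differences of -0.38 ± 0.12 and -0.30 ± 0.11 (SE). Both were lower with S100A8/A9 in each pair of replicates 1 to 3, opposite to Slc2a6. In replicate 4 both were higher, with ratios of 1.11 and 1.07. The median log2 difference of the 23 was -0.0084, and 10 of the 23 lay above 0 (background 59.6%). By replicate number 5 of the 23 were called, where 12.7% of all genes tested were, namely Fbp1, Adpgk, Pgam2, Slc2a8 and Pdk2. Adpgk, at means of 6.09, 7.65 and 9.98 FPKM in replicates 1, 2 and 3, was highest in replicate 3. So was Pgam2, at 3.00, 4.43 and 5.68 FPKM, while Slc2a8 was lowest in replicate 2. Fbp1, the bisphosphatase that runs the phosphofructokinase step backward, was lowest in replicate 3, where 10 of the 13 called glycolytic genes were highest. It was at 14.0 and 14.1 FPKM in the vehicle and S100A8/A9 libraries of replicate 1, 7.58 and 7.24 in replicate 2 and 2.96 and 2.96 in replicate 3 (adjusted p = 5.51e-04 in limma's F test). Bsg, the chaperone that brings lactate transporters to the surface, was the most abundant of this list at 123, 99.6 and 121 FPKM in vehicle libraries and 119, 102 and 134 FPKM in S100A8/A9 libraries. All 8 pentose phosphate genes were tested and none was called between treatments in limma (1 at an unadjusted p under 0.05 with the block), with a median log2 difference of 0.044. Pgd, the dehydrogenase that makes ribulose 5-phosphate, was the 1 of the 8 called by replicate number (the same background), at 194 and 209, 232 and 240.0 and 289.7 and 330.3 FPKM in replicates 1, 2 and 3. Of 13 regulators 11 were tested and limma called none between treatments (0 at an unadjusted p under 0.05 with the block). Txnip, which restrains glucose uptake, was the most abundant of them at 155, 135 and 106 FPKM in vehicle libraries and 153, 123 and 112 FPKM in S100A8/A9 libraries, and the groups overlapped. The median log2 difference of the regulators was -0.0082.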

How the data were processed

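Libraries were made from poly(A) RNA with random priming, per the labels' protocols, which state no strand marking. Tools named by the submitters' processing notes, without roles, are HISAT2, Subread, featureCounts and DESeq2 1.34.0, with the mm10 build. The authors deposited values taken here as FPKM, which no header states. One table of 55450 genes holds replicates 1 to 3, and another of 24848 genes, made apart from it, holds replicate 4 (24388 genes are in both). Only alternatives joined them in a fit. Depth of replicate 4 came from the value of 1 read, of which 98.6% (vehicle) and 98.8% (S100A8/A9) of low values, up to 20 reads, were whole multiples to within 0.01 reads.

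Identifiers were matched to symbols through a table of Ensembl names (31 of 31), positions and exon lengths came from GENCODE M21 (mm10) and promoters from RefSeq. The limma-trend test (limma 3.58.1, R 4.3.3) ran on log2(FPKM + 1) with group as its term and genes of at least 1 FPKM in at least 3 of 6 libraries, two-sided, with Benjamini-Hochberg adjustment over 11387 genes and a threshold of 0.05. Another fit added replicate number as a block, and its F test compared replicate numbers. Deviations from the group mean correlated over genes at 0.59, 0.25 and 0.52 between libraries that share a number and at -0.53 to -0.01 otherwise. The numbers were therefore treated as pairs, although what they mark is not given in the sources used here. Fits were also run on simulated data, and how small a change either fit could detect is not stated here.

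Alternatives were other scalings, pseudocount and filter, all 8 libraries, and single libraries left out. Members, lists and tests were chosen with earlier results of these data known. Values in every library are given for the most abundant gene of each step, those with 1 direction in 4 pairs, the 5 with the smallest p in the blocked fit, the 5 with the smallest p for replicate number, and, added after their values were seen, Slc16a1, Gapdh, Pfkl and Pdk3. Genes outside the 31 are named when called, most abundant in their list, a near copy or completing a family. Slc2a9 and single cell type markers were named after their values were seen.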

Additional observations from a re-analysis of the deposited data

Results flagged for a closer look

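Within-pair log2 differences of the 31 genes over the 4 pairs were searched for 1 pair far from the others by Dixon's test, which by chance picks about 1 in 20 groups of 4. It picked 3 of 31. Slc2a6 had 0.40, 0.39 and 0.46 in pairs 1 to 3 and -0.0712 in pair 4. Slc16a1 had -0.14, -0.14 and -0.10 in pairs 1 to 3 and 0.238 in pair 4. For both, the pair that stood apart is the one from the separately made table, so table and replicate cannot be told apart. Aldoa had 0.115 in pair 3 against -0.044, -0.068 and -0.042 in pairs 1, 2 and 4.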

How the results depend on the processing

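The count of glycolytic genes called between treatments was 0 in all 24 alternative fits, planned or added after seeing the data (the other scalings, pseudocount and filter with the replicate block). The block changed no call among the 31, and 59 of 11387 genes overall were called with it. With the block the count of all genes was 39 after scaling to a common sum and 3 under each of the other scalings, 62 with a pseudocount of 0.1, 0 without the filter and 5 to 95 with 1 replicate left out. The median log2 difference of 0.035 lay between -0.021 and 0.059 over other settings and between -0.12 and 0.10 with 1 library or pair left out, the lowest without S100A8/A9 replicate 3. For replicate number the 13 calls became 0 without the filter, 3 to 10 with 1 replicate left out, and 12 to 14 under the other scalings and pseudocount. No call between treatments stood behind any sign that changed. It changed after scaling to a common sum for Slc16a3 (-0.010), Pfkfb4 (-0.0087), Aldoa (-0.019) and Hk1 (-0.015). The sign also differed with median-of-ratios factors for Hk2 (-0.0068), Slc16a3 (-0.020), Pfkfb4 (-0.019), Aldoa (-0.030) and Hk1 (-0.025). The sign also differed with upper-quartile factors for Slc16a3 (-0.012), Pfkfb4 (-0.010), Aldoa (-0.021) and Hk1 (-0.017). The sign also differed with quantile normalization for Hk2 (-0.038), Pgam1 (-0.021), Slc16a3 (-0.052), Pfkfb4 (-0.031), Slc2a1 (-0.0037), Pkm (-0.0069), Hk1 (-0.061), Pgk1 (-0.031) and Ldha (-0.013). The sign also differed with all 8 libraries for Aldoa (-0.0094), Gpi1 (0.024), Bpgm (0.030), Gapdh (0.025) and Eno1 (0.0018), the same with the replicate block over 8 libraries. With 1 library or pair left out, ranges that crossed 0 were those of Aldoa (-0.20 to 0.15), Aldoc (-0.32 to 0.014), Bpgm (-0.092 to 0.071), Dlat (-0.082 to 0.12), Eno1 (-0.22 to 0.11), Eno2 (-0.21 to 0.25), Gapdh (-0.25 to 0.067), Gpi1 (-0.29 to 0.19), Hk1 (-0.090 to 0.085), Hk2 (-0.066 to 0.10), Ldha (-0.050 to 0.12), Ldhb (-0.027 to 0.29), Pdha1 (-0.13 to 0.039), Pdk3 (-0.15 to 0.36), Pfkfb3 (-0.040 to 0.23), Pfkfb4 (-0.20 to 0.17), Pfkl (-0.19 to 0.31), Pfkm (-0.087 to 0.049), Pfkp (-0.14 to 0.30), Pgam1 (-0.094 to 0.24), Pgk1 (-0.21 to 0.29), Pkm (-0.13 to 0.18), Slc16a3 (-0.24 to 0.29), Slc2a1 (-0.16 to 0.25) and Tpi1 (-0.22 to 0.071). Where a library was left out, the lone arm was assumed to vary like the others. Fits without 1 library had no replicate block and left the groups unequal in replicate numbers. Their medians and differences therefore also carry the level of the replicate whose pair was broken. The depth of replicates 1 to 3 is unknown, so genes near 1 FPKM carry counting error that cannot be given. The causes were not tested.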

Other observations

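Some targets of HIF-1 outside glycolysis differed by replicate number, and most did not pass. Of 15 such genes with a row among replicates 1 to 3, the filter left 13, none was called between treatments in limma with or without the block (0 at an unadjusted p under 0.05 with it), and 5 were called by replicate number where 12.7% of all genes tested were. Vegfa, the vascular growth factor, was highest in replicate 3, at 32.3 and 30.3 FPKM in the vehicle and S100A8/A9 libraries of replicate 1, 35.6 and 41.7 in replicate 2 and 56.1 and 67.8 in replicate 3. Bnip3, a mitophagy receptor, was lowest in replicate 2, at 18.1 and 17.9, 7.35 and 7.66 and 12.6 and 14.5 FPKM, as was the regulator Egln3, an oxygen-sensing hydroxylase that HIF-1 raises, at 10.2 and 7.53, 3.01 and 3.08 and 6.54 and 8.55 FPKM. Ndrg1, Ero1l and Bhlhe40 were the other targets called. Egln3, Txnip, Mlxip and Vhl were the 4 of 11 tested regulators called by replicate number. Txnip, which restrains glucose uptake and is raised by glucose through Mlxip and its partner, was at 155 and 153, 135 and 123 and 106 and 112 FPKM, so it was lowest in replicate 3, where most of the called glycolytic genes were highest. These calls share their libraries with those of the glycolytic genes and are not independent of them.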
